A study of Macaca mulatta with 27 samples.

Results

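The axon guidance ligands and receptors are 71 of the 17967 genes counted in primed and reprogrammed rhesus monkey pluripotent stem cells (PSCs). They were taken by symbol, as all semaphorins, plexins, neuropilins, ephrins, Eph receptors, slits, Robo receptors, netrins with netrin-G genes, UNC5 receptors, and DCC. The genes were chosen as a set with earlier results of these data known. They fall into 12 families, namely 7 class 3 semaphorins, 13 semaphorins of classes 4 to 7, 9 plexins, 2 neuropilins, 5 ephrin-A and 3 ephrin-B ligands, 9 EphA and 5 EphB receptors, 3 slits, 4 Robo receptors, 6 netrins, and 5 netrin receptors.

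Axon guidance ligands are secreted or membrane-bound proteins that attract or repel the tip of a growing axon, and their receptors pass the signal to the actin and microtubule skeleton. Class 3 semaphorins bind neuropilins, which signal together with plexins, whereas most other semaphorins bind plexins directly. Ephrins bind Eph receptor tyrosine kinases on neighboring cells, slits bind Robo receptors, and netrins bind DCC and the UNC5 receptors. The same proteins also act outside the nervous system, in blood vessel growth, in cell sorting, and in the formation of tissue boundaries of the embryo.

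Bulk RNA sequencing was performed on 27 libraries. The primed cells had 6 libraries, and each of 7 protocols had 3. The sample labels place the primed libraries in separate sets, whereas their count columns carry the letters J and K. The letters were not matched to the sets, and the primed libraries were used as 1 group. The protocols were meant to bring PSCs to the naive state. All groups derive from 1 clone of an embryo-derived line, LyonES-tGFP-(S3), which carries a tauGFP transgene under the CAG promoter and a lentiviral STAT3-ERT2, a STAT3 that tamoxifen activates. TL2i cells received tamoxifen, leukemia inhibitory factor (LIF), and inhibitors of MEK and GSK3β, and TL-CDK8/19i cells received CNIO-47799, an inhibitor of CDK8 and CDK19, in place of these inhibitors. E-NHSM, NHSM-v, 4i/L/b, t2iLGöY, and LCDM (EPS), here LCDM, were used without tamoxifen, so that STAT3-ERT2 was inactive. The primed cells were passaged in clumps and the reprogrammed cells as single cells, so that passaging and protocol cannot be told apart. Because the groups share 1 clone, the values describe that clone.

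The values given are CPM, read counts scaled to a common library size, and they are not divided by gene length, so that levels are compared for 1 gene between groups and not between genes. Total counts ranged from 7111886 to 20760914 per library. The 7 pluripotent cell markers, POU5F1 and NANOG among them, summed to 2930 to 3210 CPM in primed and 3145 to 3285 CPM in E-NHSM cells, 1114 to 1575 CPM in TL-CDK8/19i cells, and 338 to 346 CPM, 331 to 403 CPM, 121 to 125 CPM, 100.2 to 109 CPM, and 105 to 122 CPM in LCDM, TL2i, 4i/L/b, NHSM-v, and t2iLGöY cells. NANOG was at 0 CPM in all libraries of NHSM-v and t2iLGöY, although the labels call these cells ESCs. The 8 neuron markers summed to 179 to 285 CPM in primed, 136 to 164 CPM in E-NHSM, 357 to 407 CPM in TL-CDK8/19i, 546 to 576 CPM in TL2i, 678 to 759.7 CPM in 4i/L/b, 1175 to 1237 CPM in NHSM-v, 2238 to 2457 CPM in t2iLGöY, and 3425 to 3785 CPM in LCDM cells. In each protocol all 8 neuron markers were above 3 counts in at least 1 library. The 8 fibroblast or mesenchyme markers were lowest in E-NHSM, at 439 to 485 CPM, and highest in 4i/L/b, at 11570 to 15030 CPM. They were at 1078 to 2349 CPM in primed and 773 to 1011 CPM in LCDM cells. The 8 neural progenitor markers summed to 2344 to 2702 CPM in primed cells. They were lowest in E-NHSM, at 1337 to 1463 CPM, and highest in LCDM, at 3945 to 4031 CPM. These sums do not show the single markers. By the same test, 7 of the 8 rose and 1 fell in t2iLGöY and in LCDM. In NHSM-v 6 rose and 1 fell, in 4i/L/b 5 and 1, and in TL2i 4 and 1. Of 6 tested, 3 rose and 2 fell in TL-CDK8/19i, and 0 rose and 1 fell in E-NHSM. The shares of all genes are those just given. The 5 trophoblast markers summed to 3.59 to 14.7 CPM in primed and 2.96 to 4.19 CPM in E-NHSM cells. They were at 172 to 189 CPM in LCDM, 146 to 232 CPM in TL-CDK8/19i, and 110.5 to 163 CPM in t2iLGöY cells. TL2i, NHSM-v, and 4i/L/b cells were at 105.7 to 110.1 CPM, 19.96 to 24.8 CPM, and 7.97 to 10.97 CPM. Of 3 tested in LCDM and in t2iLGöY, 1 rose and 1 fell. In TL2i 4 of 5 rose and 0 fell, and in TL-CDK8/19i 2 of 4 and 0. In NHSM-v 1 of 3 rose and 0 fell, in E-NHSM 0 of 3 and 2, and in 4i/L/b 0 of 2 and 1. The part of these markers in the results below was not tested. In bulk RNA, fewer cells of a type and less RNA per cell cannot be told apart.

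Against primed cells, more guidance genes fell than rose in E-NHSM, and more rose than fell in each of the other 6 protocols. In E-NHSM, 28 of the 66 members tested fell, where 15.1% of all genes tested fell, and 3 members rose, where 11.1% of all genes rose. The 3 that rose were the semaphorins SEMA4F and SEMA4G and the semaphorin co-receptor NRP2. The median log2 fold change of the members was -0.65 in E-NHSM, against 0.02 over all genes tested. In NHSM-v, 36 of 68 members rose (background 28.0%) and 12 fell (30.6%), with a median of 1.15 against -0.02 over all genes. In 4i/L/b, 36 of 69 rose (26.6%) and 15 fell (29.0%), with a median of 0.98 against 0.01. In TL2i, 35 of 70 rose (25.6%) and 17 fell (25.2%), with a median of 0.68 against 0.07. In t2iLGöY, 40 of 69 rose (27.1%) and 16 fell (27.2%), with a median of 1.17 against 0.02. In LCDM, 36 of 68 rose (28.2%) and 17 fell (28.9%), with a median of 0.58 against 0.03. In TL-CDK8/19i, 28 of 68 rose (22.3%) and 17 fell (23.8%), with a median of 0.18 against 0.02. The share of members that rose was above the background in 6 protocols, and the share that fell was near or below it in the same 6. The quasi-likelihood test of edgeR was used, and a gene was called changed where its Benjamini-Hochberg adjusted p over all genes tested was below 0.05. Where a change of at least 1 on the log2 scale was asked for as well, 1 member rose and 18 fell in E-NHSM, where 3.36% and 5.73% of all genes did, and 18 rose and 10 fell in TL-CDK8/19i, where 12.7% and 6.69% did. The 7 comparisons share the same 6 primed libraries and are not independent of each other. Within the primed group, 1 of 64 members tested was higher and 6 were lower in the 3 libraries lettered K than in the 3 lettered J, where 2.03% and 1.70% of all genes tested were, in a comparison chosen after seeing the data. NRP1 was higher in K, and SEMA3B, SEMA6A, PLXNB1, PLXNB2, EFNA4, and EPHA1 were lower.

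**Figure D1:**
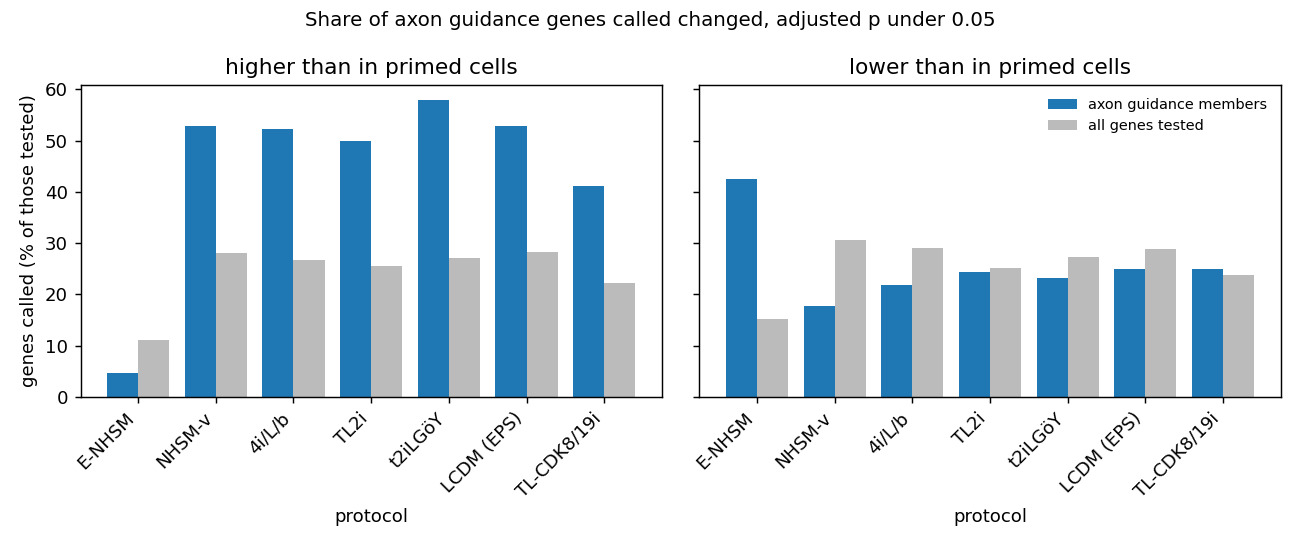
Share of axon guidance genes (blue) and of all genes tested (gray) called higher (left) or lower (right) than in primed cells, in % of the genes tested, for each of the 7 protocols (3 libraries each against 6 primed libraries). Blue stands above gray on the left in every protocol but E-NHSM, where 3 of 66 members rose and 28 fell.

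When the primed libraries were left out and the 7 protocols were compared with each other, 70 of 71 members differed, where 90.9% of all genes tested did. EPHA10 was the exception, with an adjusted p of 0.0626. The map of log2 fold changes shows the 66 members that were tested in all 7 comparisons and the 5 that were not. SEMA3G, EPHA5, EPHA6, NTN3, and DCC had too few counts in primed and in some reprogrammed cells to pass the filter everywhere. The calls made for these 5 are part of the counts above. SEMA4A, PLXNB3, EFNA3, and EPHA10 were called in none of the 7 comparisons.

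A gene that passed the filter on low counts only through the group where it was high was favored to differ. Not all such genes were called, EPHA5 in NHSM-v and TL2i for instance. The counts were therefore taken again over the genes that reached the minimum of the filter in each of the 2 groups on its own. This restriction was chosen after seeing the data. It left out SLIT1 and DCC, among others, and also genes near 0 reads in a protocol such as NTN5 in t2iLGöY. In E-NHSM, 27 of 57 such members fell and 3 rose, where 15.7% and 12.1% of all such genes did, the latter shares being given in parentheses from here. In NHSM-v, 32 of 57 rose (29.7%) and 11 fell (30.6%). In 4i/L/b, 32 of 60 rose (26.4%) and 13 fell (30.6%). In TL2i, 31 of 63 rose (25.04%) and 16 fell (27.01%). In t2iLGöY, 36 of 61 rose (27.8%) and 14 fell (27.9%). In LCDM, 33 of 60 rose (29.2%) and 14 fell (29.2%). In TL-CDK8/19i, 23 of 56 rose (22.1%) and 17 fell (26.0%). Among these members the share that fell in TL-CDK8/19i was 30.4%, and in the other 5 protocols besides E-NHSM it was below that of all such genes.

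**Figure D2:**
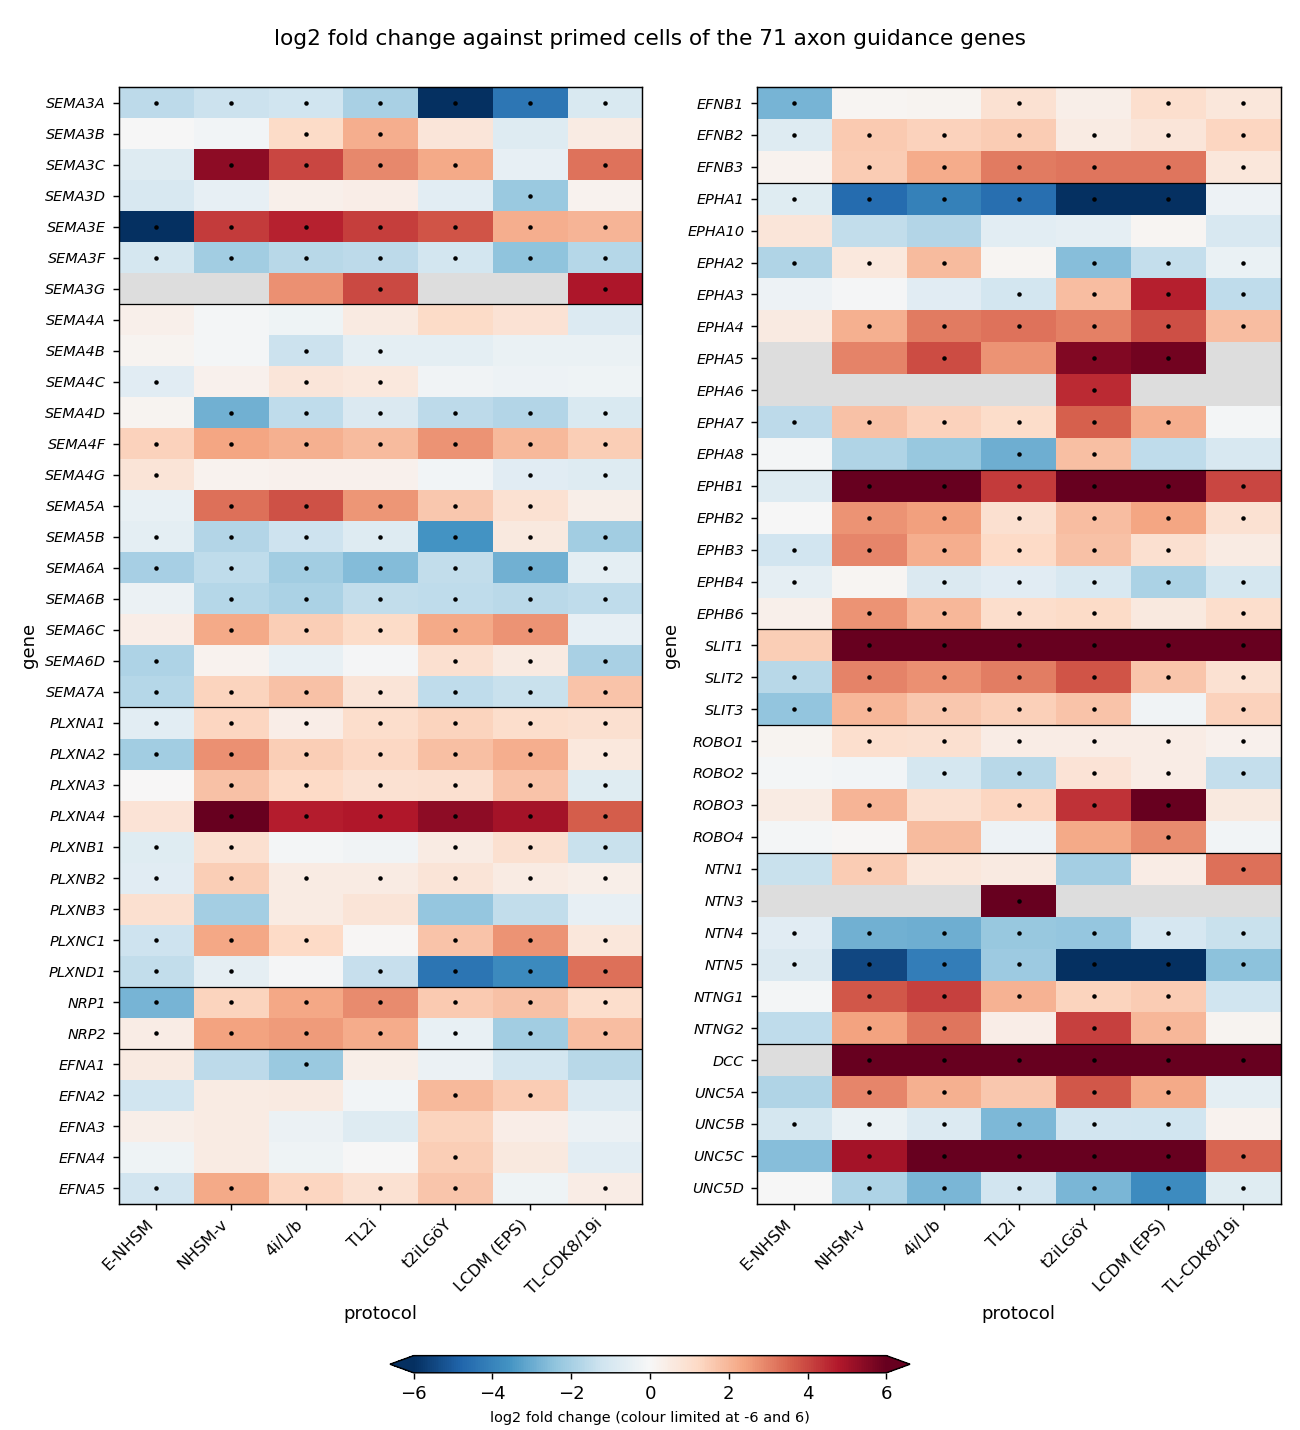
log2 fold change of each of the 71 axon guidance genes (rows, ordered by family with lines between families) in each of the 7 protocols (columns) against primed cells, with red for higher, blue for lower, gray for not tested, and a dot for an adjusted p under 0.05. SLIT1, DCC, UNC5C, EPHB1, and PLXNA4 are deep red in every protocol but E-NHSM, and SEMA3A, SEMA3F, SEMA6A, NTN4, and NTN5 are blue in every protocol.

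Among the netrin receptors, DCC and UNC5C were above primed cells in every protocol but E-NHSM. DCC, the receptor through which netrin attracts axons, was at most at 0.223 CPM in primed cells, with 3 reads in all over the 6 libraries, and at most at 0.283 CPM in E-NHSM. It reached 885, 859.5 and 969.6 CPM in LCDM (EPS), 261, 299.8 and 275 CPM in t2iLGöY, 168, 160.5 and 162 CPM in NHSM-v, and 159, 176 and 162 CPM in 4i/L/b. It was at 50.9, 55.0 and 55.1 CPM in TL2i and at 13.7, 7.47 and 5.61 CPM in TL-CDK8/19i. No library of these 6 protocols overlapped with the primed libraries. With so few primed reads the size of the rise is best given as the ratio of pooled counts, 18860 in LCDM (95% counting interval 6453 to 91450) and 182 in TL-CDK8/19i (61.5 to 888). Primed J1 held 2 of the 3 reads, and without it the ratio was 48493 (8703 to 1915389) in LCDM and 467 (83.1 to 18534) in TL-CDK8/19i. DCC passed the filter on low counts only through the protocols in which it was high, so its p-values are not given.

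The UNC5 receptors, through which netrins repel axons, moved in different directions. UNC5C lay from 0.760 to 4.79 CPM with a median of 3.54 CPM in primed cells and was at 1.51, 0 and 0 CPM in E-NHSM. It was at 267, 249 and 279.9 CPM in t2iLGöY, 255, 272 and 248 CPM in TL2i, 244, 278 and 253 CPM in 4i/L/b, 195, 189.7 and 203 CPM in LCDM (EPS), and 100.5, 109 and 86.4 CPM in NHSM-v, and at 53.2, 29.9 and 25.03 CPM in TL-CDK8/19i. All libraries of these 6 protocols were above all primed libraries. The log2 fold change of UNC5C ran from 3.51 ± 0.41 (SE, adjusted p = 8.82e-06) in TL-CDK8/19i to 6.49 ± 0.29 (SE, adjusted p = 1.11e-10) in t2iLGöY, and was -2.57 ± 1.31 (SE, adjusted p = 0.166) in E-NHSM. UNC5D, in contrast, lay from 68.3 to 97.5 CPM with a median of 85.4 CPM in primed cells and at 4.82 to 6.94 CPM in LCDM, a log2 fold change of -3.79 ± 0.18 (SE, adjusted p = 4.13e-10). UNC5D also fell in the other protocols except E-NHSM, from -0.74 in TL-CDK8/19i to -2.73 in t2iLGöY, and was at -0.03 in E-NHSM. UNC5B, which is also known in blood vessels, lay from 73.0 to 105 CPM with a median of 84.6 CPM in primed cells and fell most in TL2i, to 11.7, 16.6 and 12.1 CPM (-2.68 ± 0.18 (SE, adjusted p = 3.12e-08)). It was at 91.5 to 114 CPM in TL-CDK8/19i and overlapped there with primed cells. The call of UNC5B in NHSM-v was lost without any 1 of NHSM-v replicate 1 and 3 and primed K1, K2 and K3. The highest adjusted p among these was 0.165 (log2 fold change -0.29). DESeq2, no filter, and the primed columns J alone also lost this call, with a highest adjusted p of 0.224 over all alternatives. UNC5A lay below 3 CPM in all primed libraries and rose in NHSM-v (2.94 ± 0.69 (SE, adjusted p = 0.00185)) and in t2iLGöY (3.71 ± 0.63 (SE, adjusted p = 0.000148)). The call of UNC5A in 4i/L/b was lost without any 1 of 4i/L/b replicate 1, 2 and 3, with a highest adjusted p of 0.106 (log2 fold change 2.06). The call of UNC5A in LCDM (EPS) was lost without any 1 of LCDM (EPS) replicate 2 and 3, with a highest adjusted p of 0.0743 (log2 fold change 2.19).

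**Figure D3:**
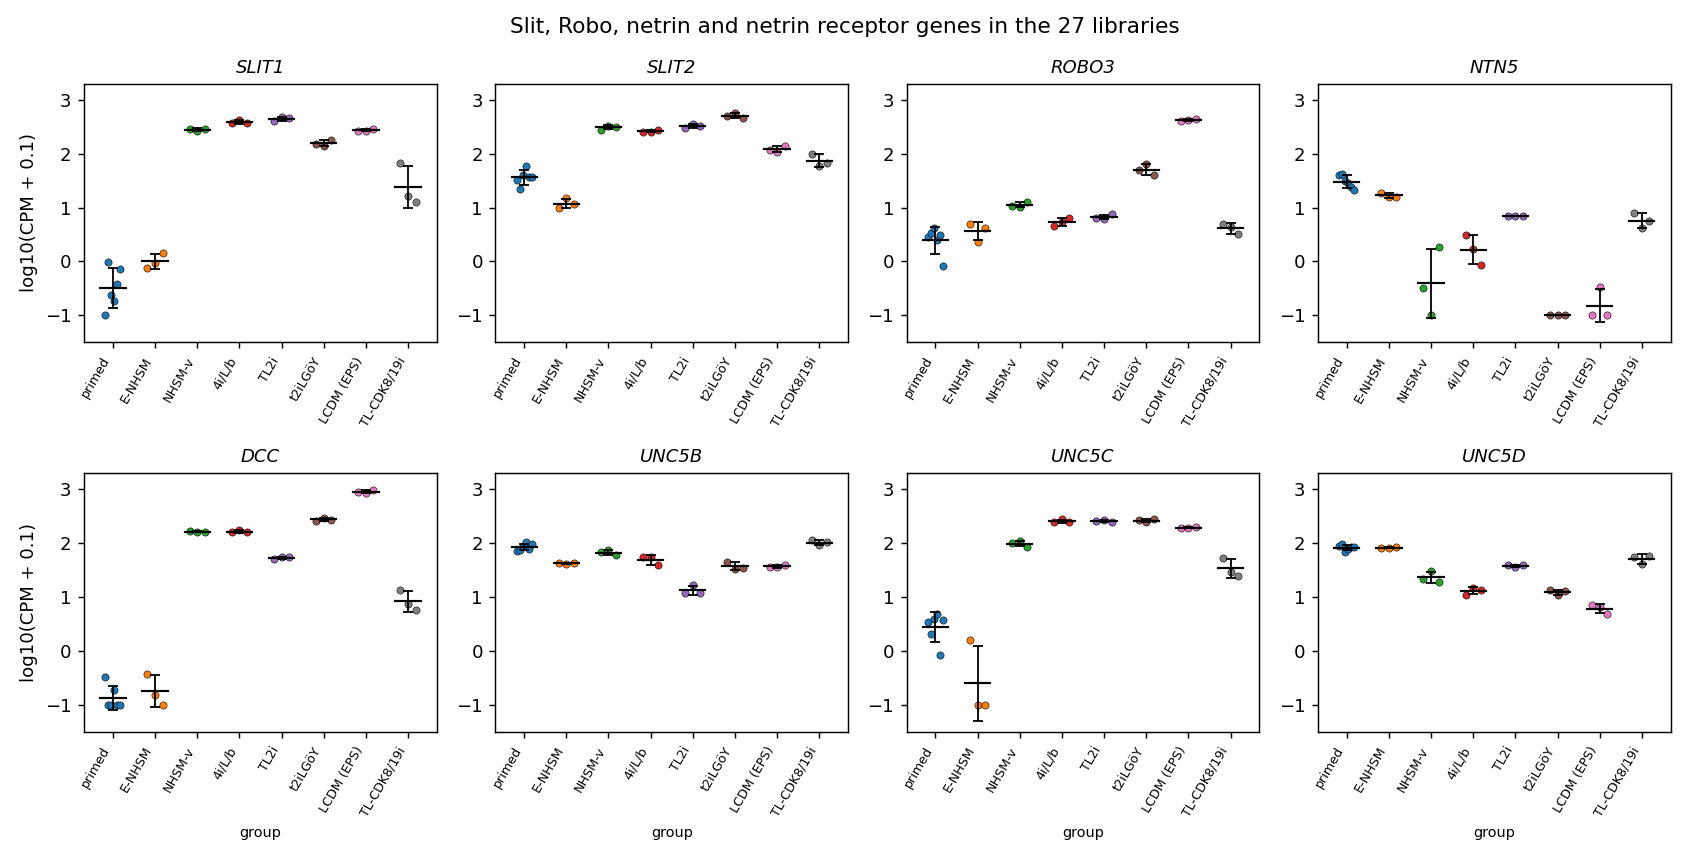
Levels of slit, Robo, netrin, and netrin receptor genes as log10(CPM + 0.1) in the 27 libraries, grouped by protocol (points, 1 per library, with the mean and SD of the log values as bars). DCC, SLIT1, and UNC5C stand above primed cells in every protocol but E-NHSM, ROBO3 stands highest in LCDM, and NTN5 is at the floor in t2iLGöY.

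Among the ligands of these receptors, the secreted netrins of the list did not move together. NTN5 lay from 21.01 to 41.5 CPM with a median of 30.2 CPM in primed cells and at 18.8, 15.9 and 15.8 CPM in E-NHSM. It was at 6.86, 6.93 and 7.0 CPM in TL2i, 7.68, 4.12 and 5.61 CPM in TL-CDK8/19i, 2.98, 1.58 and 0.770 CPM in 4i/L/b, and 0.226, 0 and 1.76 CPM in NHSM-v. In t2iLGöY NTN5 had no read in any of the 3 libraries, so it was at least 451-fold lower there, counting 3 reads over the group as the floor, and in LCDM it had reads in replicate 2 alone, at 0.236 CPM. No library of any protocol overlapped with the primed libraries. The log2 fold change of NTN5 was -0.89 ± 0.23 (SE, adjusted p = 0.00837) in E-NHSM, -2.17 ± 0.25 (SE, adjusted p = 9.45e-06) in TL2i, and -2.47 ± 0.29 (SE, adjusted p = 9.92e-06) in TL-CDK8/19i. The call of NTN5 in E-NHSM was lost with all 8 groups in 1 fit and with the primed columns K alone, with a highest adjusted p of 0.117. In NHSM-v its log2 fold change was -5.45, and without NHSM-v replicate 3 only 2 reads were left, for a ratio of pooled counts, primed over NHSM-v, with 95% counting interval, of 279 (77.1 to 2305). In 4i/L/b it was -4.15, and -4.75 without 4i/L/b replicate 1. NTN4, a netrin related to laminins, lay from 41.9 to 63.8 CPM with a median of 57.2 CPM in primed cells and fell by 0.69 on the log2 scale in E-NHSM and by 2.95 in 4i/L/b, with no overlap in any protocol. NTN1, the best known netrin, lay from 1.15 to 4.43 CPM with a median of 1.69 CPM in primed cells and rose in TL-CDK8/19i to 16.9, 30.2 and 19.2 CPM, a log2 fold change of 3.32 ± 0.42 (SE, adjusted p = 1.57e-05). The call of NTN1 in NHSM-v was lost without any 1 of NHSM-v replicate 2 and 3 and primed J1, K1, K2 and K3. The highest adjusted p among these was 0.144 (log2 fold change 1.41). With the primed columns J alone this call was lost too. NTN3 had no read in the 6 primed libraries and was at 1.03, 0.874 and 2.05 CPM in TL2i, at least 27.5-fold higher.

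The netrin-G genes, whose products are anchored to the membrane and do not bind DCC, rose in part of the protocols. NTNG1 lay from 2.14 to 11.3 CPM with a median of 5.07 CPM in primed cells and was at 97.7, 109 and 93.2 CPM in 4i/L/b and 82.1, 75.1 and 65.7 CPM in NHSM-v, log2 fold changes of 4.11 ± 0.31 (SE, adjusted p = 9.24e-08) and 3.71 ± 0.32 (SE, adjusted p = 1.15e-07). NTNG1 overlapped with primed cells in E-NHSM and TL-CDK8/19i, where its log2 fold changes of -0.14 and -1.19 did not pass the test. The call of NTNG1 in t2iLGöY was lost without any 1 of t2iLGöY replicate 1 and 2, with a highest adjusted p of 0.0888 (log2 fold change 1.18). NTNG2 lay from 0.893 to 2.71 CPM with a median of 1.59 CPM in primed cells and was at 25.9, 32.6 and 29.8 CPM in t2iLGöY (4.09 ± 0.34 (SE, adjusted p = 1.09e-07)) and 14.6, 16.6 and 19.3 CPM in 4i/L/b (3.21 ± 0.38 (SE, adjusted p = 8.21e-06)). The call of NTNG2 in LCDM (EPS) was lost without LCDM (EPS) replicate 2 (log2 fold change 1.51, adjusted p = 0.110).

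The slits, secreted repellents of the ventral midline, rose in all protocols but E-NHSM with 1 exception. SLIT1 lay from 0 to 0.863 CPM with a median of 0.210 CPM in primed cells and was at 0.659, 0.834 and 1.34 CPM in E-NHSM, which overlapped with them. It was at 399, 469.5 and 451 CPM in TL2i, 378, 422 and 369 CPM in 4i/L/b, 289, 259.6 and 289 CPM in NHSM-v, 263, 265 and 287 CPM in LCDM (EPS), and 151, 138 and 178 CPM in t2iLGöY. In TL-CDK8/19i the 3 libraries were unequal, at 66.5, 16.6 and 12.7 CPM, all above the primed libraries and all below the other 5 protocols. SLIT1 also passed the filter on low counts only through the protocols in which it was high. The log2 fold change of SLIT1 was 10.31 ± 0.26 (SE) in TL2i and 6.47 ± 0.67 (SE) in TL-CDK8/19i, where it was 5.37 without replicate 1 of TL-CDK8/19i. SLIT2 lay from 22.1 to 59.6 CPM with a median of 37.1 CPM in primed cells, fell to 9.75, 14.6 and 11.4 CPM in E-NHSM (-1.69 ± 0.26 (SE, adjusted p = 9.43e-05)), and rose to 499.9, 563 and 464 CPM in t2iLGöY (3.76 ± 0.20 (SE, adjusted p = 6.57e-10)). The call of SLIT2 in TL-CDK8/19i was lost without TL-CDK8/19i replicate 1 (log2 fold change 0.69, adjusted p = 0.0543). SLIT3 lay from 23.1 to 64.4 CPM with a median of 41.1 CPM in primed cells, fell to 9.33, 8.51 and 6.73 CPM in E-NHSM (-2.35 ± 0.31 (SE, adjusted p = 1.50e-05)), and was highest in NHSM-v at 162 to 181 CPM (2.00 ± 0.24 (SE, adjusted p = 4.59e-06)). The exception was SLIT3 in LCDM, at 33.8 to 37.2 CPM and a log2 fold change of -0.21 ± 0.28 (SE, adjusted p = 0.542). SLIT1 and DCC, like SEMA4F and PLXNA4 below, are on the study's own list of heatmap genes, which was chosen on these samples, so their directions are not independent evidence.

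Among the Robo receptors, ROBO3 had the largest rise, in LCDM, where all 4 were called higher, as were 28.2% of all genes tested. ROBO3 is known for its part in midline crossing of hindbrain and spinal commissural axons. ROBO3 lay from 0.709 to 4.00 CPM with a median of 2.83 CPM in primed cells and was at 402, 413 and 437 CPM in LCDM (EPS) and at 49.7, 64.0 and 40.5 CPM in t2iLGöY. It was at 10.3 to 12.8 CPM in NHSM-v and at 3.09 to 7.35 CPM in TL-CDK8/19i, TL2i, and 4i/L/b together. No library of another group reached the LCDM or the t2iLGöY libraries. ROBO3 had a log2 fold change of 7.33 ± 0.23 (SE, adjusted p = 7.63e-12) in LCDM, 4.31 ± 0.34 (SE, adjusted p = 6.30e-08) in t2iLGöY, and 2.05 ± 0.48 (SE, adjusted p = 0.00194) in NHSM-v, and the 7 protocols differed among themselves with an adjusted p of 9.97e-24. The call of ROBO3 in TL2i was lost without any 1 of TL2i replicate 1, 2 and 3 and primed J1, J2, K1 and K2. The highest adjusted p among these was 0.164 (log2 fold change 1.22). Running without a filter or with the primed columns J alone also lost this call. ROBO1 lay from 153 to 180.5 CPM with a median of 164 CPM in primed cells and rose in NHSM-v (1.01 ± 0.08 (SE, adjusted p = 3.79e-08)) and 4i/L/b (0.95 ± 0.08 (SE, adjusted p = 3.11e-07)), and by less in TL2i, t2iLGöY, and LCDM, by 0.44 to 0.47 on the log2 scale. The call of ROBO1 in TL-CDK8/19i was lost without any 1 of TL-CDK8/19i replicate 1 and 3 and primed J1, K2 and K3, with a highest adjusted p of 0.203 (log2 fold change 0.19). ROBO2 lay from 55.9 to 94.96 CPM with a median of 75.9 CPM in primed cells, fell in TL2i (-1.67 ± 0.18 (SE, adjusted p = 3.59e-06)), TL-CDK8/19i (-1.45 ± 0.17 (SE, adjusted p = 7.62e-06)), and 4i/L/b (-1.04 ± 0.16 (SE, adjusted p = 8.21e-05)), and rose in t2iLGöY to 121 to 138 CPM (0.81 ± 0.14 (SE, adjusted p = 0.000193)). The call of ROBO2 in LCDM (EPS) was lost without LCDM (EPS) replicate 3 (log2 fold change 0.44, adjusted p = 0.0504). ROBO4, an endothelial receptor, did not exceed 8.39 CPM in any library. The call of ROBO4 in LCDM (EPS) was lost without any 1 of LCDM (EPS) replicate 1 and 2, with a highest adjusted p of 0.103 (log2 fold change 2.56).

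Class 3 semaphorins, secreted ligands that mostly repel axons, moved in opposite directions. SEMA3A lay from 163 to 256 CPM with a median of 238 CPM in primed cells. It was at 2.66, 1.94 and 1.66 CPM in t2iLGöY and 12.3, 12.2 and 10.1 CPM in LCDM (EPS), and at 61.1, 64.5 and 56.1 CPM in TL2i and 78.3, 71.8 and 83.6 CPM in E-NHSM. It was at 93.7 to 99.0 CPM, 98.7 to 109 CPM, and 115 to 144 CPM in NHSM-v, 4i/L/b, and TL-CDK8/19i. All libraries of the 7 protocols were below all primed libraries. The log2 fold change of SEMA3A ran from -0.90 ± 0.13 (SE, adjusted p = 7.28e-05) in TL-CDK8/19i to -6.74 ± 0.21 (SE, adjusted p = 3.37e-12) in t2iLGöY. SEMA3F lay from 44.6 to 78.3 CPM with a median of 74.5 CPM in primed cells and also fell in each protocol without overlap, from -1.04 ± 0.19 (SE, adjusted p = 0.000356) in E-NHSM to -2.42 ± 0.21 (SE, adjusted p = 3.26e-07) in LCDM. SEMA3C, named here after its values were seen, rose instead. It lay from 4.29 to 40.9 CPM with a median of 22.2 CPM in primed cells and reached 934, 922 and 973 CPM in NHSM-v, a log2 fold change of 5.36 ± 0.36 (SE, adjusted p = 6.47e-09), while in LCDM it was at 13.9 to 18.2 CPM and did not pass the test (adjusted p = 0.388). SEMA3E lay from 0.266 to 2.00 CPM with a median of 0.822 CPM in primed cells and rose in t2iLGöY, TL2i, NHSM-v, and 4i/L/b, most in 4i/L/b to 21.04 to 26.4 CPM (4.64 ± 0.43 (SE)). SEMA3E had no read in the 3 E-NHSM libraries, at least 17.9-fold lower. The call of SEMA3E in E-NHSM was lost without any 1 of E-NHSM replicate 1, 2 and 3, with a highest adjusted p of 0.0895. The call of SEMA3E in LCDM (EPS) was lost without any 1 of LCDM (EPS) replicate 2 and 3, with a highest adjusted p of 0.240 (log2 fold change 1.52). The call of SEMA3E in TL-CDK8/19i was lost without any 1 of TL-CDK8/19i replicate 1, 2 and 3 and primed K2, with a highest adjusted p of 0.141 (log2 fold change 1.93).

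Of the membrane-bound semaphorins, SEMA4F rose and SEMA6A fell in each of the 7 comparisons. SEMA4F lay from 4.45 to 10.7 CPM with a median of 7.63 CPM in primed cells and all reprogrammed libraries were above them, at 17.6 to 22.4 CPM in E-NHSM and 42.2 to 54.2 CPM in t2iLGöY among them. This gave SEMA4F a log2 fold change of 1.38 ± 0.31 (SE, adjusted p = 0.00261) in E-NHSM and 2.71 ± 0.27 (SE, adjusted p = 7.71e-07) in t2iLGöY. SEMA6A, which acts as a ligand and as a receptor, lay from 466.1 to 671 CPM with a median of 549 CPM in primed cells. It was at 75.0, 74.2 and 74.0 CPM in LCDM (EPS), 89.6, 91.9 and 96.4 CPM in TL2i, and 380.3, 308 and 447 CPM in TL-CDK8/19i. For SEMA6A, the log2 fold change was -2.89 ± 0.12 (SE, adjusted p = 1.42e-10) in LCDM, -2.58 ± 0.12 (SE, adjusted p = 1.18e-09) in TL2i, and -0.60 ± 0.13 (SE, adjusted p = 0.00179) in TL-CDK8/19i, with no overlap with primed cells. SEMA5B lay from 44.4 to 75.7 CPM with a median of 69.8 CPM in primed cells, fell in 6 protocols, most in t2iLGöY (-3.60 ± 0.42 (SE, adjusted p = 3.79e-06)), and rose in LCDM to 94.1, 114 and 94.0 CPM (0.61 ± 0.15 (SE, adjusted p = 0.00318)). The call of SEMA5B in E-NHSM was lost with all 8 groups in 1 fit (adjusted p = 0.0621).

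SEMA7A and SEMA6D went different ways between protocols. SEMA7A, a lipid-anchored semaphorin that promotes axon growth, lay from 19.2 to 51.6 CPM with a median of 26.1 CPM in primed cells. It rose to 104, 107 and 118 CPM in 4i/L/b, 98.6, 109 and 114 CPM in TL-CDK8/19i, and 80.9, 80.1 and 79.8 CPM in NHSM-v, and fell to 8.43, 11.1 and 9.90 CPM in E-NHSM, 11.7, 5.74 and 14.7 CPM in t2iLGöY, and 13.7, 13.5 and 10.7 CPM in LCDM (EPS). Its log2 fold change was 1.75 ± 0.27 (SE, adjusted p = 8.56e-05) in 4i/L/b and -1.69 ± 0.32 (SE, adjusted p = 0.000544) in E-NHSM. The call of SEMA7A in TL2i was lost without any 1 of TL2i replicate 1, 2 and 3 and primed J1, J2, J3 and K2. The highest adjusted p among these was 0.104 (log2 fold change 0.72). With the primed columns K alone this call was lost too (adjusted p = 0.148). SEMA6D lay from 24.3 to 44.9 CPM with a median of 35.5 CPM in primed cells, fell in TL-CDK8/19i (-1.95 ± 0.23 (SE, adjusted p = 9.81e-06)) and E-NHSM (-1.84 ± 0.24 (SE, adjusted p = 1.63e-05)), and rose in t2iLGöY (0.98 ± 0.20 (SE, adjusted p = 0.000632)). The call of SEMA6D in LCDM (EPS) was lost without any 1 of LCDM (EPS) replicate 1 and 2 and primed J1, with a highest adjusted p of 0.107 (log2 fold change 0.48).

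**Figure D4:**
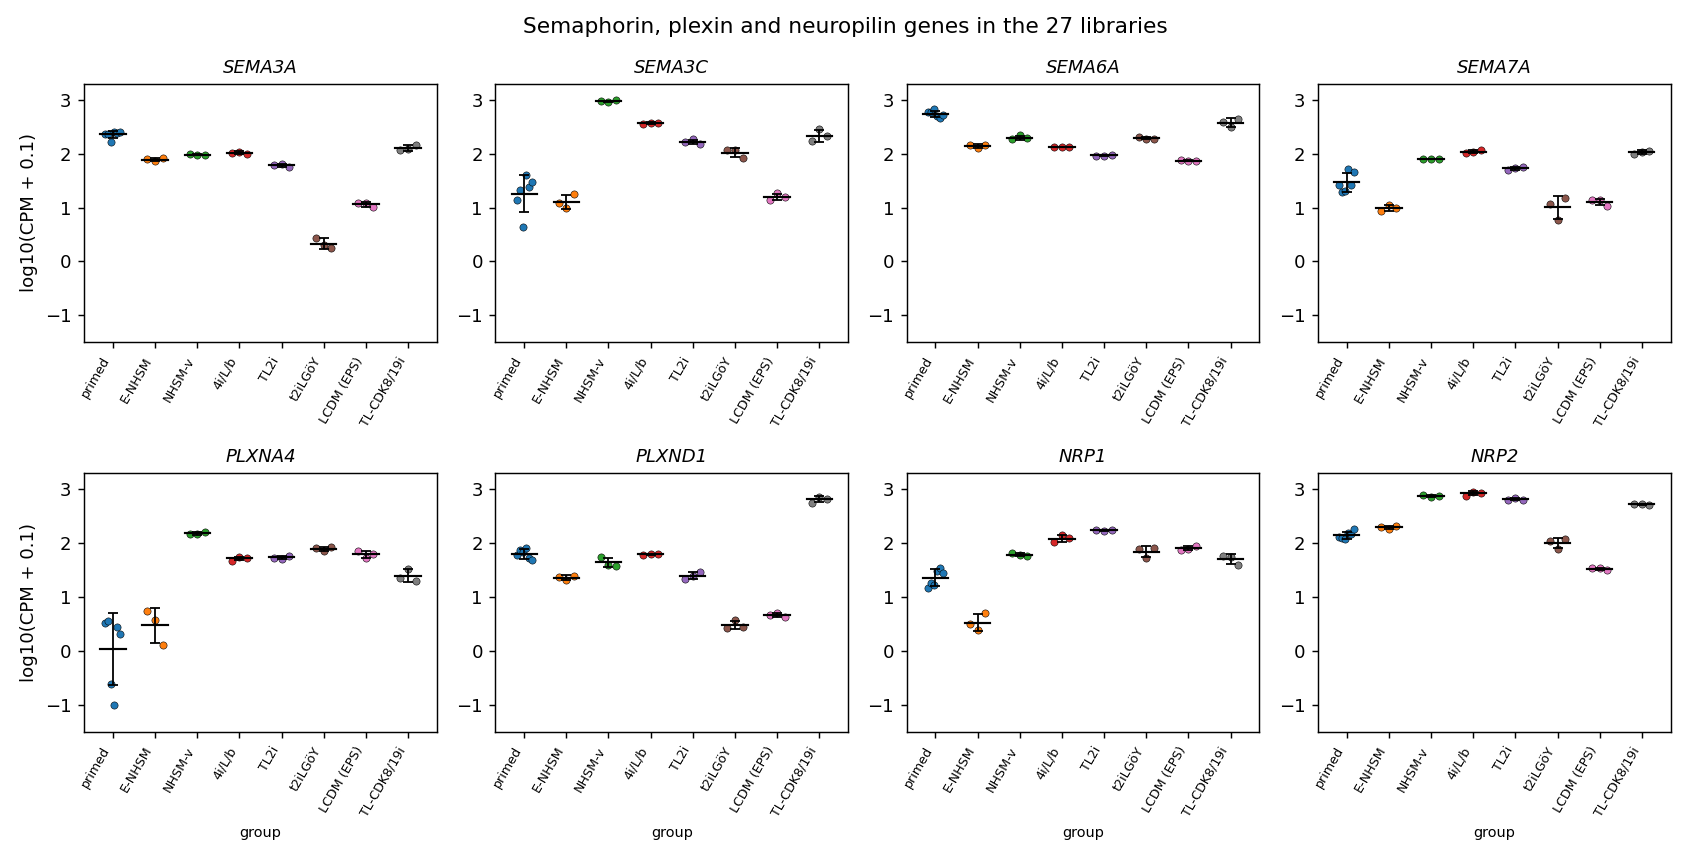
Levels of semaphorin, plexin, and neuropilin genes as log10(CPM + 0.1) in the 27 libraries, grouped by protocol (points, 1 per library, with the mean and SD of the log values as bars). PLXND1 stands highest in TL-CDK8/19i and lowest in t2iLGöY and LCDM, and SEMA3A is lowest in t2iLGöY.

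Plexins, the signaling receptors of the semaphorins, mostly rose outside E-NHSM. In E-NHSM 6 of the 9 plexins fell and 0 rose, where 15.1% and 11.1% of all genes tested did. In each of the other protocols 5 to 7 of the 9 rose, where 22.3% to 28.2% of all genes did. In TL-CDK8/19i 2 of the 9 plexins rose by at least 1 on the log2 scale, where 12.7% of all genes tested did. PLXNA1 lay from 99.5 to 167 CPM with a median of 141 CPM in primed cells, and was at 87.0 to 94.8 CPM in E-NHSM and 319 to 374 CPM in t2iLGöY, log2 fold changes of -0.64 ± 0.14 (SE, adjusted p = 0.00212) and 1.33 ± 0.13 (SE, adjusted p = 6.66e-07). The call of PLXNA1 in 4i/L/b was lost without 4i/L/b replicate 2 (log2 fold change 0.30, adjusted p = 0.153). PLXNA2 lay from 34.6 to 46.8 CPM with a median of 43.5 CPM in primed cells, fell to 8.10, 13.2 and 8.40 CPM in E-NHSM (-2.08 ± 0.21 (SE, adjusted p = 7.35e-07)), and rose to 283, 260.1 and 307 CPM in NHSM-v (2.74 ± 0.11 (SE, adjusted p = 2.87e-11)). PLXNB2 lay from 151 to 216 CPM with a median of 185 CPM in primed cells and was also highest in NHSM-v, at 507 to 544 CPM (1.50 ± 0.11 (SE, adjusted p = 1.26e-08)), and lowest in E-NHSM, at 112 to 122 CPM (-0.67 ± 0.12 (SE, adjusted p = 0.000362)). The call of PLXNB2 in TL-CDK8/19i was lost without TL-CDK8/19i replicate 2 (log2 fold change 0.34, adjusted p = 0.0717). PLXNA4, named here after its values were seen, lay from 0 to 3.56 CPM with a median of 2.32 CPM in primed cells and rose to 146, 152 and 164 CPM in NHSM-v (6.26 ± 0.46 (SE, adjusted p = 1.97e-08)) and by least in TL-CDK8/19i, to 19.8 to 33.6 CPM (3.65 ± 0.68 (SE, adjusted p = 0.000535)).

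PLXND1 and PLXNB1 did not follow the other plexins. PLXND1, a receptor known from blood vessels, lay from 49.0 to 81.0 CPM with a median of 65.0 CPM in primed cells. It was at 569, 732 and 676 CPM in TL-CDK8/19i, above every other library of the series, and at 2.59, 3.60 and 2.75 CPM in t2iLGöY and 4.61, 5.04 and 4.11 CPM in LCDM (EPS). It was at 20.4 to 24.4 CPM in E-NHSM, 21.6 to 29.4 CPM in TL2i, and 60.2 to 64.4 CPM in 4i/L/b, where it overlapped with primed cells. Its log2 fold change was 3.30 ± 0.14 (SE, adjusted p = 6.66e-10) in TL-CDK8/19i, -4.40 ± 0.25 (SE, adjusted p = 1.38e-09) in t2iLGöY, and -3.81 ± 0.22 (SE, adjusted p = 3.23e-09) in LCDM. The call of PLXND1 in NHSM-v was lost without any 1 of NHSM-v replicate 2 and 3 and primed J2 and K1, with a highest adjusted p of 0.114 (log2 fold change -0.44). The 5 endothelium markers summed to 150.5 to 200.0 CPM in TL-CDK8/19i and 91.5 to 127 CPM in primed cells, and their part in this result was not tested. PLXNB1 lay from 122 to 228 CPM with a median of 169.7 CPM in primed cells, rose in LCDM (0.98 ± 0.18 (SE, adjusted p = 0.000323)) and NHSM-v (0.94 ± 0.17 (SE, adjusted p = 0.000252)), and fell in TL-CDK8/19i (-1.33 ± 0.22 (SE, adjusted p = 0.000153)). The call of PLXNB1 in E-NHSM was lost without E-NHSM replicate 2 (log2 fold change -0.63, adjusted p = 0.0527). The call of PLXNB1 in t2iLGöY was lost without any 1 of t2iLGöY replicate 1 and 2 and primed K1, K2 and K3. The highest adjusted p among these was 0.103 (log2 fold change 0.45). With the primed columns J alone this call was lost too (adjusted p = 0.133).

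The neuropilins, which hold class 3 semaphorins and vascular endothelial growth factor, differed from each other. NRP1 lay from 14.7 to 35.2 CPM with a median of 23.3 CPM in primed cells, and its primed libraries lettered K were above those lettered J. It was at 3.06, 2.33 and 4.95 CPM in E-NHSM and at 175, 172 and 174 CPM in TL2i, log2 fold changes of -2.80 ± 0.36 (SE, adjusted p = 1.21e-05) and 2.84 ± 0.22 (SE, adjusted p = 1.59e-07). NRP1 rose in the other 5 protocols by 1.03 to 2.31 on the log2 scale, and no library of any protocol overlapped with primed cells. NRP2 lay from 118 to 182 CPM with a median of 138 CPM in primed cells. It was at 769.7, 907 and 874 CPM in 4i/L/b, 799, 735 and 744 CPM in NHSM-v, 637, 699 and 648 CPM in TL2i, and 534, 538 and 519 CPM in TL-CDK8/19i. It was at 201, 185 and 206 CPM in E-NHSM and 34.5, 34.2 and 32.0 CPM in LCDM (EPS). For NRP2, the log2 fold change was 2.54 ± 0.12 (SE, adjusted p = 6.87e-10) in 4i/L/b, 0.47 ± 0.12 (SE, adjusted p = 0.00656) in E-NHSM, and -2.08 ± 0.14 (SE, adjusted p = 2.49e-08) in LCDM, with no overlap with primed cells in any of the 3. The call of NRP2 in t2iLGöY was lost without t2iLGöY replicate 2 (log2 fold change -0.27, adjusted p = 0.167). With the primed columns J alone this call was lost too (adjusted p = 0.207).

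Ephrins are the membrane-bound ligands of the Eph receptors. In E-NHSM 2 of the 3 in the B class and 1 of the 5 in the A class fell and none rose. There 15.1% of all genes tested fell and 11.1% rose. In t2iLGöY 2 of the 3 and 3 of the 5 rose and none fell, where 27.1% and 27.2% of all genes did. EFNB3 lay from 12.8 to 19.9 CPM with a median of 15.2 CPM in primed cells. It was at 135, 150.4 and 141 CPM in LCDM (EPS), 159, 145 and 115 CPM in t2iLGöY, and 139, 128 and 138 CPM in TL2i. Its log2 fold change was 3.21 ± 0.14 (SE, adjusted p = 2.32e-10) in LCDM, 3.21 ± 0.16 (SE, adjusted p = 4.49e-10) in t2iLGöY, and 3.13 ± 0.14 (SE, adjusted p = 5.65e-10) in TL2i, and 0.23 ± 0.23 (SE, adjusted p = 0.513) in E-NHSM. The call of EFNB3 in TL-CDK8/19i was lost without any 1 of TL-CDK8/19i replicate 1 and 3 and primed K2, with a highest adjusted p of 0.225 (log2 fold change 0.42). EFNB2, which marks arteries among vessels, lay from 136 to 194 CPM with a median of 171 CPM in primed cells, fell in E-NHSM (-0.79 ± 0.12 (SE, adjusted p = 6.41e-05)), and rose most in NHSM-v, to 484 to 539 CPM (1.59 ± 0.10 (SE, adjusted p = 3.33e-09)). EFNB1 lay from 46.3 to 92.1 CPM with a median of 60.6 CPM in primed cells, fell to 9.28, 8.67 and 9.85 CPM in E-NHSM (-2.79 ± 0.23 (SE, adjusted p = 5.31e-08)), and rose in LCDM (1.01 ± 0.18 (SE, adjusted p = 0.000280)) and TL2i (0.92 ± 0.18 (SE, adjusted p = 0.000797)). Of the 5 ephrin-A ligands, EFNA5 lay from 47.0 to 53.9 CPM with a median of 50.3 CPM in primed cells, fell in E-NHSM (-1.14 ± 0.17 (SE, adjusted p = 6.41e-05)), and rose to 242, 256 and 254 CPM in NHSM-v (2.29 ± 0.09 (SE, adjusted p = 1.93e-11)). EFNA2 lay from 2.29 to 9.71 CPM with a median of 8.24 CPM in primed cells and rose in t2iLGöY (1.96 ± 0.33 (SE, adjusted p = 0.000134)) and LCDM (1.53 ± 0.33 (SE, adjusted p = 0.00131)). EFNA1 lay from 0.513 to 8.57 CPM with a median of 4.89 CPM in primed cells and was called in 4i/L/b alone, where it overlapped with them. The call of EFNA1 in 4i/L/b was lost without any 1 of 4i/L/b replicate 1, 2 and 3 and primed J1, J2, J3 and K3. The highest adjusted p among these was 0.139 (log2 fold change -2.05). Upper-quartile normalization, no filter, and the primed columns K alone also lost this call. Over all alternatives its highest adjusted p was 0.396.

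**Figure D5:**
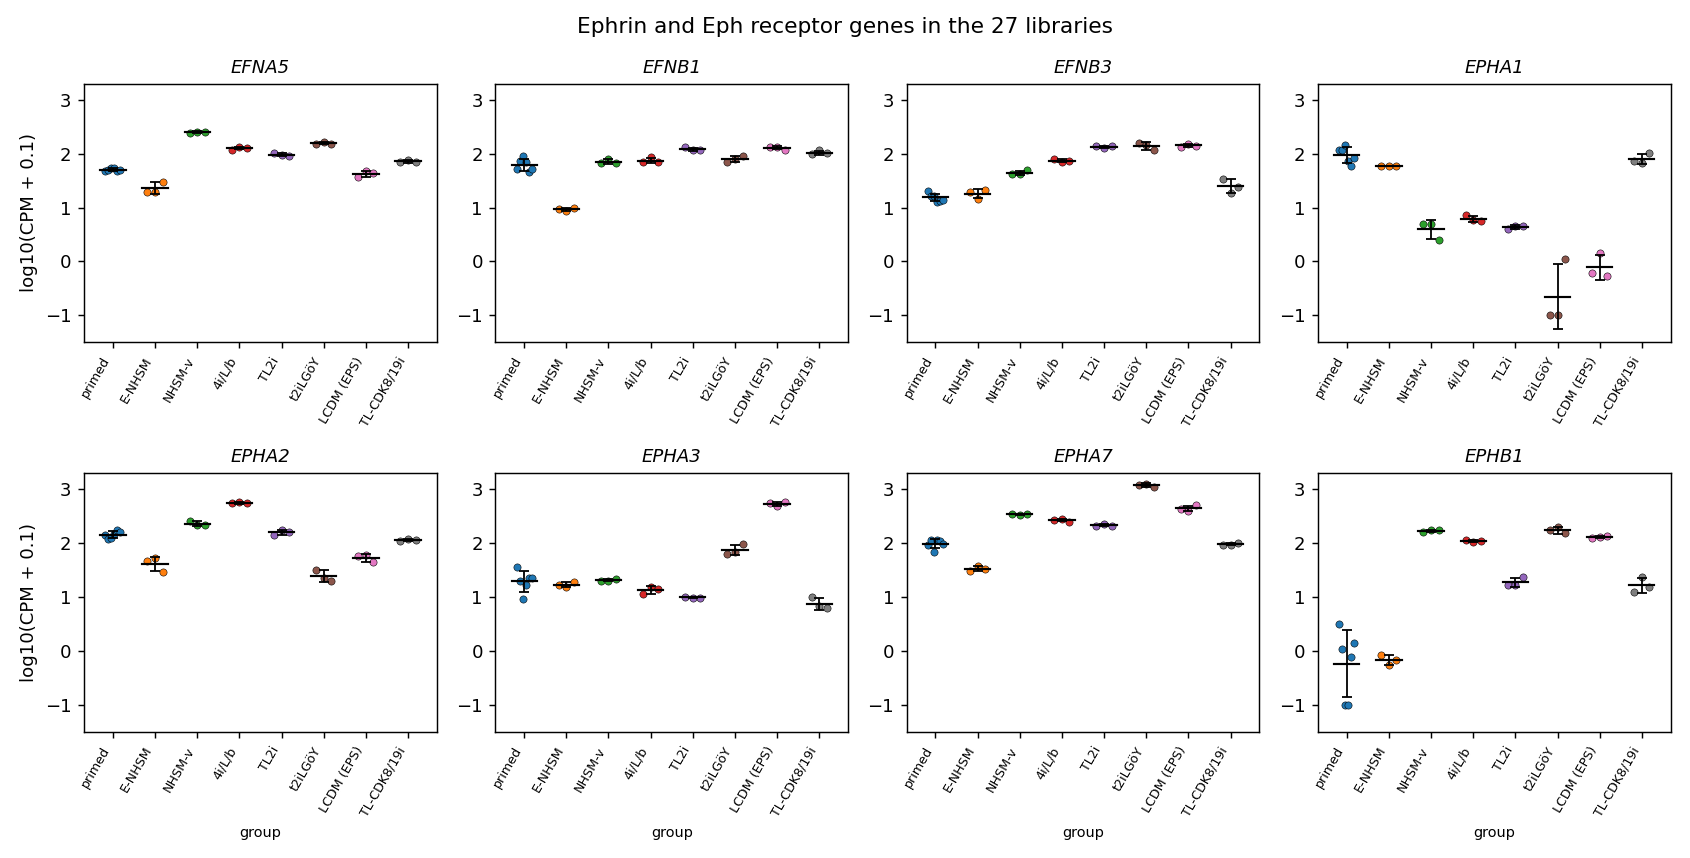
Levels of ephrin and Eph receptor genes as log10(CPM + 0.1) in the 27 libraries, grouped by protocol (points, 1 per library, with the mean and SD of the log values as bars). EPHA1 is far below the primed level in 5 protocols and near it in TL-CDK8/19i, EPHA3 stands highest in LCDM, and EPHA7 stands highest in t2iLGöY.

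EphA receptors divided into genes that were lost, gained, or moved both ways. EPHA1 lay from 58.3 to 143 CPM with a median of 99.1 CPM in primed cells. It was at 7.11, 5.71 and 5.49 CPM in 4i/L/b, 3.82, 4.49 and 4.45 CPM in TL2i, and 4.85, 4.94 and 2.38 CPM in NHSM-v. It was at 0.512, 1.32 and 0.433 CPM in LCDM (EPS) and 0, 0 and 1.01 CPM in t2iLGöY, while TL-CDK8/19i cells, at 74.3, 67.4 and 102 CPM, overlapped with primed cells. The log2 fold change of EPHA1 was -4.04 ± 0.31 (SE, adjusted p = 1.08e-07) in 4i/L/b, -4.53 ± 0.31 (SE, adjusted p = 3.97e-08) in TL2i, and -0.32 ± 0.24 (SE, adjusted p = 0.302) in TL-CDK8/19i. In LCDM it was -6.96, and -7.64 without LCDM replicate 2. In t2iLGöY reads were found in replicate 3 alone and the value of -8.16 became -7.57 without replicate 2. Without replicate 3 no read was left, so EPHA1 was at least 904-fold lower in the other t2iLGöY libraries. This bound does not hold for replicate 3, at 1.01 CPM. The call of EPHA1 in E-NHSM was lost without any 1 of E-NHSM replicate 1, 2 and 3. The highest adjusted p among these was 0.0655 (log2 fold change -0.72). With the primed columns K alone this call was lost too (adjusted p = 0.123). EPHA3 lay from 9.29 to 35.6 CPM with a median of 21.2 CPM in primed cells and reached 550.3, 496 and 592 CPM in LCDM (EPS) and 62.3, 69.5 and 95.1 CPM in t2iLGöY, above all other libraries of the series. Its log2 fold change was 4.68 ± 0.24 (SE, adjusted p = 1.21e-09) in LCDM and 1.86 ± 0.28 (SE, adjusted p = 4.95e-05) in t2iLGöY, and it fell in TL-CDK8/19i (-1.54 ± 0.36 (SE, adjusted p = 0.00275)) and TL2i (-1.12 ± 0.33 (SE, adjusted p = 0.0112)), with overlap in both.

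EPHA7 lay from 70.1 to 117 CPM with a median of 103 CPM in primed cells and reached 1203, 1285 and 1105 CPM in t2iLGöY, a log2 fold change of 3.60 ± 0.12 (SE, adjusted p = 7.07e-12). It also rose in LCDM, NHSM-v, 4i/L/b, and TL2i, by 1.10 to 2.16 on the log2 scale, and fell to 30.9 to 38.4 CPM in E-NHSM (-1.57 ± 0.16 (SE, adjusted p = 7.21e-07)). EPHA4, a receptor of both ephrin classes, lay from 10.03 to 22.4 CPM with a median of 13.9 CPM in primed cells and was highest in LCDM at 208, 223 and 204 CPM (3.88 ± 0.20 (SE, adjusted p = 1.27e-09)), and its smallest called rise was that in TL-CDK8/19i (1.86 ± 0.25 (SE, adjusted p = 2.46e-05)). EPHA2 lay from 122 to 175 CPM with a median of 146 CPM in primed cells, rose to 549, 580.1 and 559 CPM in 4i/L/b (1.90 ± 0.10 (SE, adjusted p = 4.13e-09)) and in NHSM-v (0.64 ± 0.12 (SE, adjusted p = 0.000244)), and fell in t2iLGöY (-2.54 ± 0.18 (SE, adjusted p = 1.57e-08)), E-NHSM (-1.79 ± 0.17 (SE, adjusted p = 4.31e-07)), and LCDM (-1.45 ± 0.14 (SE, adjusted p = 9.65e-07)). The call of EPHA2 in TL-CDK8/19i was lost without any 1 of TL-CDK8/19i replicate 1 and 3. The highest adjusted p among these was 0.0793 (log2 fold change -0.35). With the primed columns J alone this call was lost too (adjusted p = 0.128). EPHA7 and EPHA2 each differed among the 7 protocols, with adjusted p-values of 3.70e-24 and 4.86e-19.

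Of the 5 EphB receptors, which bind ephrin-B ligands, EPHB4 fell in every protocol but NHSM-v, and the other 4 rose in most protocols outside E-NHSM. In E-NHSM, EPHB3 and EPHB4 fell and none of the 5 rose, where 15.1% of all genes tested fell and 11.1% rose. EPHB1 lay from 0 to 3.13 CPM with a median of 0.831 CPM in primed cells and overlapped with them in E-NHSM. It was at 174, 202 and 152 CPM in t2iLGöY, 161, 173 and 173 CPM in NHSM-v, 125, 132 and 136 CPM in LCDM (EPS), and 115, 108 and 112 CPM in 4i/L/b, and at 16.5 to 23.8 CPM in TL2i and 12.6 to 23.6 CPM in TL-CDK8/19i. Its log2 fold change was 7.47 ± 0.46 (SE, adjusted p = 4.22e-09) in t2iLGöY and 4.02 ± 0.79 (SE) in TL-CDK8/19i, and without primed J1, the highest primed library, 8.12 and 4.75. EPHB2 lay from 24.9 to 37.8 CPM with a median of 34.4 CPM in primed cells and rose most in NHSM-v, to 207 to 236 CPM (2.71 ± 0.13 (SE, adjusted p = 1.65e-10)). EPHB3 lay from 6.76 to 13.6 CPM with a median of 9.27 CPM in primed cells and also rose most in NHSM-v, to 72.5 to 78.0 CPM (2.95 ± 0.20 (SE, adjusted p = 6.43e-09)), while in TL-CDK8/19i its value of 0.48 ± 0.28 did not pass the test (adjusted p = 0.169). The call of EPHB3 in E-NHSM was lost without any 1 of E-NHSM replicate 1 and 3 and primed J1, J3, K2 and K3. The highest adjusted p among these was 0.201 (log2 fold change -0.84). Upper-quartile normalization, no filter, and the primed columns J or K alone also lost this call. EPHB4, known from veins, lay from 214 to 239 CPM with a median of 231 CPM in primed cells and was lowest in LCDM, at 56.8, 61.2 and 68.8 CPM (-1.88 ± 0.10 (SE, adjusted p = 1.03e-09)), while in NHSM-v its value of 0.12 ± 0.08 did not pass the test (adjusted p = 0.217). EPHB6, an Eph receptor without kinase activity, rose most in NHSM-v, to 50.3 to 63.1 CPM from 6.26 to 10.3 CPM in primed cells (2.69 ± 0.19 (SE, adjusted p = 1.48e-08)), and in LCDM its value of 0.56 ± 0.28 did not pass the test (adjusted p = 0.102). EPHB4 and EPHB6 were named after their values were seen.

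TL-CDK8/19i and TL2i cells share the clone, tamoxifen, and LIF and differ in their kinase inhibitors, and their comparison uses no primed library. It sets the guidance genes of these protocols side by side, of which more were lower than higher in TL-CDK8/19i cells. The inhibitors and any other difference between the cultures of the protocols cannot be told apart. Of 68 members tested, 34 were lower and 12 higher, where 33.3% and 31.5% of all genes tested were, and the median log2 difference of the members was -0.41, against -0.04 over all genes. By at least 1 on the log2 scale, 22 were lower and 6 higher, where 14.1% and 14.0% of all genes were. The 12 higher were SEMA3A, SEMA3C, SEMA3G, SEMA6A, SEMA7A, PLXNC1, PLXND1, EPHA1, NTN1, NTN4, UNC5B, and UNC5D. Of these 46 calls, 9 were lost under at least 1 alternative. Among the higher, SEMA3C lost its call under 5 alternatives (highest adjusted p = 0.281), SEMA3G with all 8 groups in 1 fit (adjusted p = 0.608), and UNC5D without TL-CDK8/19i replicate 3 (adjusted p = 0.0801). Among the lower, the 6 were EFNA2, EFNA4, EFNB1, ROBO3, SEMA4A, and SEMA4F. Over the genes past the minimum in both groups, 33 of 64 members were lower and 12 higher, where 32.9% and 31.6% of all such genes were. PLXND1 was higher by 4.68 ± 0.14 (SE, adjusted p = 1.22e-11), EPHA1 by 4.23 ± 0.17 (SE, adjusted p = 2.54e-10), and UNC5B by 2.91 ± 0.15 (SE, adjusted p = 1.64e-09) on the log2 scale. SLIT1 differed by -3.82 ± 0.43 (SE, adjusted p = 3.62e-06), or -4.96 without replicate 1 of TL-CDK8/19i, NTNG1 by -3.29 ± 0.30 (SE, adjusted p = 5.87e-07), and UNC5C by -2.88 ± 0.21 (SE, adjusted p = 5.47e-08), all lower in TL-CDK8/19i. All 3 libraries of TL-CDK8/19i lay on the same side of all 3 of TL2i for these 6 genes. The 6 were picked for the largest changes in this comparison, so that their lack of overlap is no added evidence. Both neuropilins were among the lower, NRP1 by -1.80 ± 0.13 and NRP2 by -0.35 ± 0.09. The pluripotent cell markers summed to 1114 to 1575 CPM in TL-CDK8/19i and 331 to 403 CPM in TL2i cells, the neuron markers to 357 to 407 CPM and 546 to 576 CPM, the fibroblast or mesenchyme markers to 8624 to 11160 CPM and 2955 to 5744 CPM, and the endothelium markers to 150.5 to 200.0 CPM and 33.4 to 42.4 CPM, and their part in these differences was not tested.

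Guidance genes that the symbols above do not cover were read from a list of 17 co-receptors and ligands and 41 cytoplasmic effectors. Of the co-receptors and ligands, 3 of 15 tested rose (background 11.1%) and 7 fell (15.1%) in E-NHSM. In NHSM-v 8 of 15 rose (28.0%) and 6 fell (30.6%), and in 4i/L/b 9 of 15 (26.6%) and 3 (29.0%). In TL2i 7 of 16 rose (25.6%) and 4 fell (25.2%), and in t2iLGöY 10 of 17 (27.1%) and 3 (27.2%). In LCDM 10 of 17 rose (28.2%) and 2 fell (28.9%), and in TL-CDK8/19i 6 of 15 (22.3%) and 5 (23.8%). The share that fell was above the background in E-NHSM (46.7%), NHSM-v (40.0%), and TL-CDK8/19i (33.3%). CNTN2, a contactin of commissural axons, had log2 fold changes of 9.14 in LCDM, 7.72 in t2iLGöY, 6.58 in NHSM-v, and -1.14 in E-NHSM, the last of which did not pass the test. NRCAM, a cell adhesion molecule that binds neuropilins and contactins, rose by 5.61 in LCDM and 3.85 in TL-CDK8/19i. L1CAM, its relative, rose by 0.92 in 4i/L/b and changed by -1.15 in NHSM-v. Of the 41 effectors, 13 fell and 4 rose in E-NHSM, 27 rose and 6 fell in NHSM-v, 22 and 10 in 4i/L/b, 20 and 11 in TL2i, 23 and 7 in t2iLGöY, 21 and 9 in LCDM, and 19 and 8 in TL-CDK8/19i. SRGAP3, a slit and Robo GTPase-activating protein, rose by 5.72 in LCDM and 4.89 in t2iLGöY. PAK1 and VASP, regulators of actin, fell by 3.20 and 1.81 on the log2 scale in NHSM-v. These genes were named after their values were seen. The backgrounds are those given above for each comparison.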

How the data were processed

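RNA of 27 libraries of rhesus PSCs was extracted and made into directional mRNA libraries, and single reads were sequenced. The authors deposited raw read counts per gene symbol, 1 column per library, not normalized and not pooled. Per the submitters' processing notes, bcl2fastq, cutadapt, HISAT2, and HTSeq were used, and their versions, settings, genome build, and annotation are not given in the sources used here. Whether counting used the strand is not stated either, so reads of overlapping genes, antisense genes included, may be shared. With no build given, no sequences or positions are printed. All count columns were assigned to a group by name, and 0 were left over. The sample labels place the primed libraries in separate sets. The 6 primed columns carry the letters J and K, which were not matched to these sets, and were used as 1 group.

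The fits were run in R 4.3.3 with edgeR 4.0.16 and its dependency limma 3.58.1. CPM were computed from the counts with TMM-normalized library sizes over all 27 libraries. For each comparison, edgeR's quasi-likelihood test was run on the libraries of the compared groups alone and on the 13268 to 13808 genes that filterByExpr kept in the comparisons with primed cells, with Benjamini-Hochberg adjustment over all genes tested and a threshold of 0.05. The SE of a log2 fold change was its size over the square root of F. The 7 protocols were also compared with each other in 1 joint test without the primed libraries. The fits were tested on simulated counts.

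A group with 0 reads was given a floor of 3 counts over the group, and with 1 to 3 reads the ratio of pooled counts was given with its 95% interval. These floors and intervals cover counting error only. The labels name sets of primed libraries, but nothing in them says that libraries of a group come from separate cultures. The p-values therefore measure the spread between these libraries, which may be technical. In a chi-square test over genes, all 36 pairs of libraries from 1 group differed beyond counting noise. Total counts had a median of 12201171 per library.

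The members and the gene lists were chosen with earlier results of these data known. Named with their values were all members of the neuropilins, slits, Robo receptors, netrins, and netrin receptors, in each other family the 3 members called in most comparisons with primed cells, the members called in the same direction in all 7, those higher in at least 2 and lower in at least 2 protocols, and the 3 higher and 3 lower by the largest change between TL-CDK8/19i and TL2i. The alternatives were DESeq2 1.42.0, upper-quartile normalization, no filter, all 8 groups in 1 fit, a change of at least 1 on the log2 scale, a floor of 10 counts per library, the primed columns J or K alone, a replicate block, and each library left out in turn. Counts over genes that reached the minimum of filterByExpr in each of the 2 groups on its own, and a comparison of the primed columns K with J, were added after seeing the data.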

Additional observations from a re-analysis of the deposited data

Results flagged for a closer look

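In the primed group, the highest or lowest of the 6 libraries stood apart from the other 5 by Dixon's test for 7 of the 71 genes, where chance flags about 1 in 20. SEMA3A was at 163 CPM in primed J3 and at 229 to 256 CPM in the other primed libraries. EFNA2 was at 2.29 CPM in J3 against 7.79 to 9.71 CPM, and EPHA10 at 5.57 CPM in J3 against 1.46 to 2.57 CPM. SEMA5B was at 44.4 CPM in K1 against 64.3 to 75.7 CPM, and NTNG1 at 11.3 CPM in K1 against 2.14 to 5.47 CPM. EPHA5 was at 1.12 CPM in J1 against 0 to 0.342 CPM, and SEMA3G at 1.08 CPM in J2, with 0 CPM in the other 5.

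For 7 genes, at least 2 protocols were called higher and at least 2 lower than the same primed libraries, and the protocols differed in the joint test that leaves out the primed libraries. In this joint test 90.9% of all genes tested differed, and how many of all genes moved both ways was not counted. The adjusted p of this joint test was 1.43e-14 for SEMA6D, 2.18e-17 for SEMA7A, 3.59e-16 for PLXNB1, 7.32e-23 for NRP2, 4.86e-19 for EPHA2, 3.62e-24 for EPHA3, and 3.98e-16 for ROBO2. SEMA6D and ROBO2 were higher in 2 protocols only through a call in LCDM that was lost under at least 1 alternative. NRP2 and PLXNB1 were lower in 2 protocols only through such a call, in t2iLGöY for NRP2 and in E-NHSM for PLXNB1. Against primed cells, PLXNA3 and PLXND1 were called in opposite directions in TL2i and in TL-CDK8/19i. Between these protocols, PLXNA3 was lower in TL-CDK8/19i by a log2 difference of -1.62 and PLXND1 was higher by 4.68. The call of PLXNA3 in TL-CDK8/19i against primed cells was lost without TL-CDK8/19i replicate 2 (adjusted p = 0.0584) or replicate 3 (adjusted p = 0.0836).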

How the results depend on the processing

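Asking for a change of at least 1 on the log2 scale moved these counts by more than 1.5 times. It took the members higher in E-NHSM from 3 to 1 and those lower from 28 to 18, those higher in TL-CDK8/19i than in primed cells from 28 to 18 and those lower from 17 to 10, and those higher in TL-CDK8/19i than in TL2i from 12 to 6 and those lower from 34 to 22. The members higher in E-NHSM numbered 5 with all 8 groups in 1 fit and 7 with the primed columns K alone. The other counts stayed within 1.5 times under the alternatives run, and with 1 library left out the members lower in E-NHSM numbered 25 to 29 and those higher in LCDM 30 to 37. Of 382 calls of members in the 8 comparisons of 2 groups, 51 were lost under at least 1 alternative other than the minimum fold. None of 6246 values reversed. Further calls named above were also lost with part of the primed columns. With J alone these were PLXNA1 in 4i/L/b, SEMA3E in LCDM, and EFNB3, PLXNB2, ROBO1, and SEMA3E in TL-CDK8/19i. With K alone they were PLXND1 in NHSM-v, NTNG1 in t2iLGöY, and PLXNA3 in TL-CDK8/19i. Other normalizations moved the median of all genes by at most 0.0825 on the log2 scale.

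With a replicate block, 12 members were higher and 31 lower in TL-CDK8/19i than in TL2i, and 69 differed among the 7 protocols. Replicates of equal number had correlations of -0.127 to -0.00855 between TL-CDK8/19i and TL2i. These come from 3 pairs and cannot exclude that such replicates were handled together. Genes with 3 reads or fewer over a group, such as DCC and NTN3 in primed cells, allow bounds or wide intervals only.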
